A study of Mus musculus with 6 samples.

Results

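The BCL2 family decides whether a cell keeps its mitochondria intact or dies by apoptosis, and 10 of its genes, listed by symbol, were followed in primary mouse microglia (PM), the resident macrophages of the brain. They were Bcl2, Bcl2l1, Mcl1 and Bcl2a1b, which code for survival proteins, Bcl2l11, Bbc3, Pmaip1 and Bid, which code for BH3-only proteins, and Bax and Bak1, which code for the proteins that form the mitochondrial pore. All 10 were found among the 24411 features of the count tables, and all 10 passed the filter on low counts. RNA-seq libraries of 2 groups were compared, 3 libraries of PM treated for 4 h with GSK-J4 (10 µM) and 3 libraries of PM treated for 4 h with LPS (10 ng/ml) and GSK-J4 (10 µM). GSK-J4 is an inhibitor of the H3K27 demethylases JMJD3 and UTX, and LPS is a bacterial cell wall component that activates microglia through TLR4. Both groups carried GSK-J4, and each difference below compares libraries with and without LPS in the presence of the inhibitor. Untreated PM, PM given LPS alone and BV-2 cells, a microglial line, were not analysed here. PM were shaken off mixed glial cultures made from the pooled whole brains of 12 ICR pups at postnatal day 3, so that no library stands for a single animal and other glia may be carried over. The study describes the triplicates as independent RNA samples, but the labels do not tie a replicate number to a culture, and the p-values then measure the spread between these libraries.

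Survival proteins of the family hold Bax and Bak1 in check on the outer mitochondrial membrane. BH3-only proteins are made or activated under stress, bind the survival proteins and can engage Bax and Bak1 directly, and once Bax and Bak1 form pores, cytochrome c leaves the mitochondria and activates caspases. In macrophages and microglia, signals through TLR4 and NF-κB are known to raise the transcription of some survival genes, Bcl2a1 among them. Whether a cell lives depends on the balance of these proteins, much of it set by protein turnover and phosphorylation, which counts of RNA do not measure.

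The libraries held 2597505 to 3472716 counts on genes, of which 1374377 to 2443344 lay outside the features Rn45s, Mir6236 and Lars2. The 45S ribosomal precursor Rn45s took between 22.2 and 32.4% of the counts in the GSK-J4 libraries and between 45.8 and 48.1% in the LPS + GSK-J4 libraries. Levels are given as CPM, the counts scaled to library size with TMM factors, on which scale the lower limit of 3 counts in a library was 0.673 to 1.24 CPM. Replicate 3 of each group stood apart: chi-square values per degree of freedom were 2.21 and 2.48 for replicates 1 and 2 of a group and lay between 6.44 and 13.9 for pairs with replicate 3. These values were taken on raw counts with Rn45s included, which took 22.2, 22.3 and 32.4% of GSK-J4 replicates 1, 2 and 3. The part of Rn45s in them was not tested. The 8 microglia markers were all present, and their summed level was between 2631 and 2725 CPM in the GSK-J4 libraries and between 2058 and 2120 CPM in the LPS + GSK-J4 libraries, with Csf1r and Cx3cr1 lower by edgeR's test (adjusted p of 0.01 or less). Summed markers of astrocytes (7 genes) lay between 31.5 and 34.7 CPM with GSK-J4 and between 79.2 and 99.5 CPM with LPS + GSK-J4, and those of oligodendrocytes (7 genes) between 148 and 176 CPM and between 262 and 292 CPM. The ranges for the 2 oligodendrocyte precursor markers were 54.8 to 67.5 and 105.8 to 169 CPM, for the 4 neuron markers 6.06 to 7.08 and 14.1 to 16.4 CPM, and for the 5 fibroblast and mural markers 48.5 to 127 and 85.9 to 255 CPM. None of these markers was at 0 in all libraries, but single genes carried much of some sums. By the same test, 2 of 5 tested astrocyte markers (Gfap and Aqp4) and 4 of 6 oligodendrocyte markers were higher. So were the only tested precursor marker (Cspg4) and neuron marker (Tubb3), but 0 of 5 fibroblast and mural markers, and 0 in these lists were lower. Pdgfra was at 2.36 and 2.38 CPM in the 2 groups, and Cnp at 26.9 and 26.7 CPM. The part of these shifts in the results below was not tested, and in bulk RNA fewer cells of a type and less RNA per cell cannot be told apart.

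2 of the 10 genes were higher in the libraries with LPS and GSK-J4 than in those with GSK-J4 alone, and they stand on opposite sides of the family. The BH3-only gene Bcl2l11 rose 2.11-fold and the survival gene Bcl2a1b rose 1.85-fold, whereas none of the 10 was called lower and none passed the larger threshold. A gene was called where edgeR's quasi-likelihood test gave an adjusted p of 0.01 or less, and the larger threshold, taken from the study, asked in addition for an absolute log2-fold change of 1.5 or more. Of the 10133 genes tested, 8.42% were called higher, 5.46% were called lower and 3.76% passed the larger threshold. At an unadjusted p under 0.05, 3 of the 10 were higher, 2 were lower and 0 passed the larger fold, where 19.3% of all genes tested were higher, 15.5% were lower and 4.14% passed that fold. The DESeq2 Wald test gave 2, 0 and 0 calls, beside 5.62%, 4.66% and 2.81% of the 12189 genes it tested. The median log2-fold change of the 10 genes was 0.22 (range −0.54 to 1.08), beside −0.00064 over all genes tested.

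**Figure D1:**
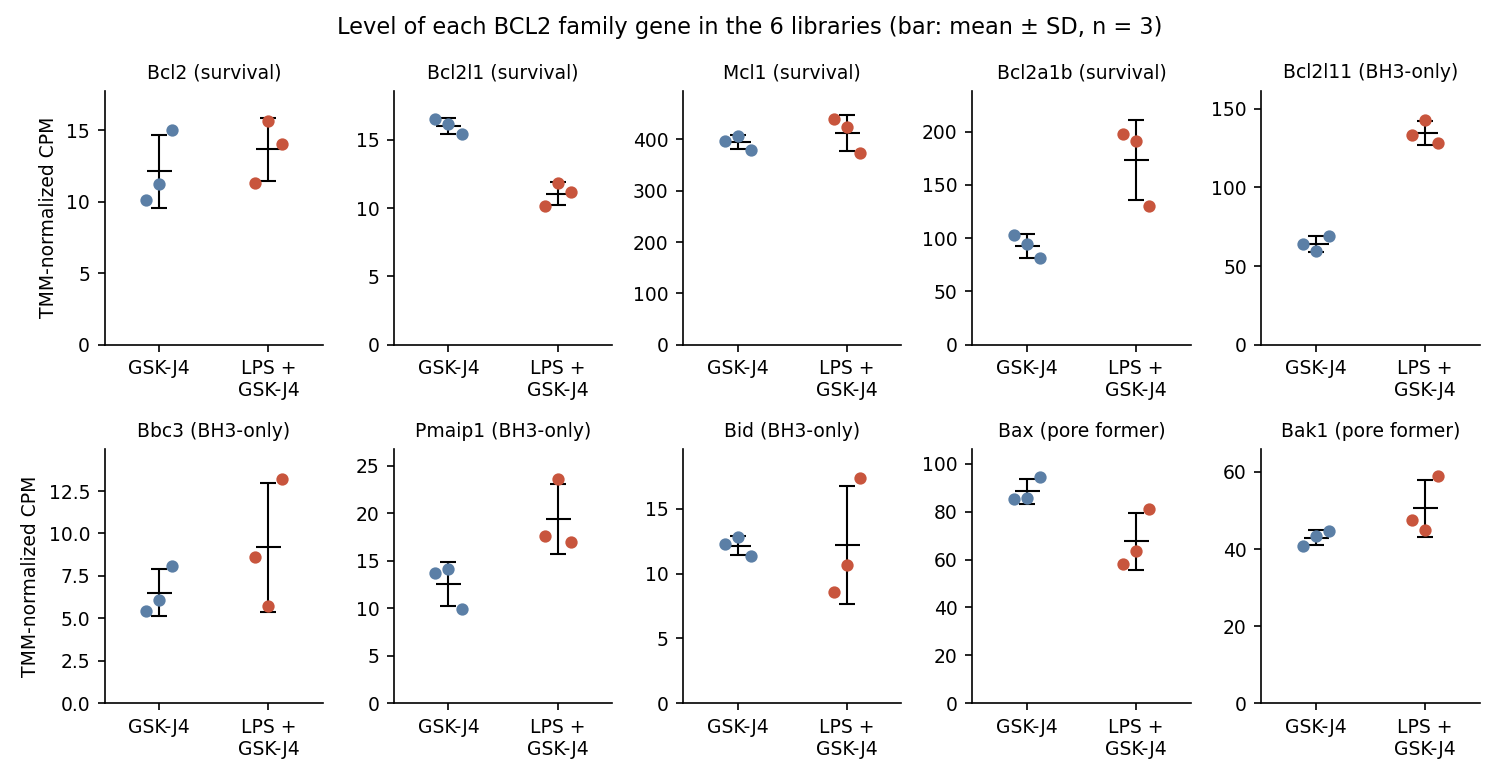
Level of each of the 10 BCL2 family genes (TMM-normalized CPM, axes from 0) in the 3 GSK-J4 libraries (blue) and the 3 LPS + GSK-J4 libraries (red), with mean ± SD. Bcl2l11 lies at 59.3 to 68.9 CPM in one group and at 128 to 143 CPM in the other, while the points of Bcl2, Mcl1, Bbc3 and Bid overlap.

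**Figure D2:**
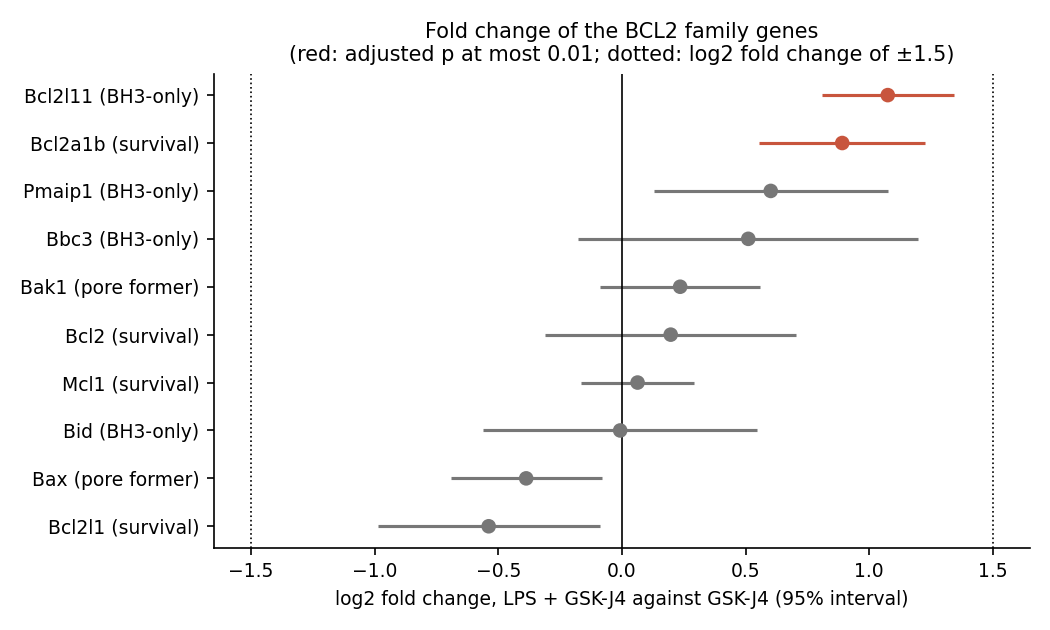
Log2-fold change of the 10 genes, LPS + GSK-J4 against GSK-J4, with 95% intervals from the quasi-likelihood fit; red marks an adjusted p of at most 0.01 and dotted lines mark a log2-fold change of 1.5 in either direction. Bcl2l11 (1.08) and Bcl2a1b (0.89) are called, and all 10 estimates lie inside the dotted lines.

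Bcl2a1b codes for A1, a short-lived survival protein of blood and immune cells. Mice carry copies of it on chromosome 9, Bcl2a1a, Bcl2a1b, Bcl2a1c and Bcl2a1d. The sequences of Bcl2a1a, Bcl2a1b and Bcl2a1d are shown because they set which fragments can be assigned to a copy. On mm10, Bcl2a1b lies at chr9:89199209-89207827 (+ strand), Bcl2a1a at chr9:88956900-88962419 (+), Bcl2a1d at chr9:88723285-88731914 (−) and Bcl2a1c at chr9:114330135-114330578 (+). The coding sequences of Bcl2a1b, Bcl2a1a and Bcl2a1d are each 519 bases long, and against Bcl2a1b 11 bases differ in Bcl2a1a and 6 in Bcl2a1d. The read-length stretch of 101 coding bases with the most differences begins at the start codon, in the first coding exon (Bcl2a1b chr9:89199360-89199460, Bcl2a1a chr9:88957051-88957151, Bcl2a1d chr9:88731619-88731719), and capitals mark the bases at which at least 1 of the 3 genes differs.
Bcl2a1b: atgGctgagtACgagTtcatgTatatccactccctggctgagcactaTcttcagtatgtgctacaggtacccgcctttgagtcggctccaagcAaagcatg
Bcl2a1a: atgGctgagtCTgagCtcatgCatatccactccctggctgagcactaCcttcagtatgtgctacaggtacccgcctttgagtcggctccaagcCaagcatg
Bcl2a1d: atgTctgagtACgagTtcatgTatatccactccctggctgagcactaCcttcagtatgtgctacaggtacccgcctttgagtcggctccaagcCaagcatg

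In this stretch 6 bases of Bcl2a1a and 3 bases of Bcl2a1d differ from Bcl2a1b. Over whole transcripts, 69.5% of the 101-base windows of Bcl2a1b (498 of 717) occur in no other copy, against 56.9% of those of Bcl2a1a (409 of 719), 46% of those of Bcl2a1d (351 of 763) and 100% of those of Bcl2a1c (344 of 344). STAR counts a fragment only where it maps to a single place, so fragments that lie wholly in shared stretches are missing from the counts of each copy.

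The copies share their upstream sequence as well. In RefSeq's promoter table (GRCm38.p6, 250 bases before to 50 bases after each start site), a stretch of 256 bases of the Bcl2a1b promoter aligns to Bcl2a1a at 99.2% identity and to Bcl2a1d at 98.8% identity, the latter with 6 bases absent. The part of that stretch before every annotated start is printed to show how little separates the copies. It lies at chr9:89199023-89199164 (+) for Bcl2a1b and at chr9:88956714-88956855 (+) for Bcl2a1a, where 0 of 142 bases differ, and at chr9:88731915-88732050 (−) for Bcl2a1d, where 1 base is substituted (in capitals) and 6 bases are absent.
Bcl2a1b and Bcl2a1a: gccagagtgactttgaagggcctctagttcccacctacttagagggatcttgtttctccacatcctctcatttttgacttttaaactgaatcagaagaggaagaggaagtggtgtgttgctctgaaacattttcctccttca
Bcl2a1d: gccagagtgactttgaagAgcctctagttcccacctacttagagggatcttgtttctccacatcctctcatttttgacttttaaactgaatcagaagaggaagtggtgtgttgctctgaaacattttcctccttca

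Bcl2a1b had 103, 94.7 and 81.0 CPM in GSK-J4 replicates 1, 2 and 3, and 198, 191 and 130 CPM in LPS + GSK-J4 replicates 1, 2 and 3. Each LPS + GSK-J4 library was above each GSK-J4 library, and replicate 3 was the lowest of its group in both. The means were 93.0 ± 11.3 and 173 ± 37.4 CPM (SD, n = 3). The log2-fold change was 0.89 (SE 0.16; 95% interval 0.56 to 1.23; adjusted p = 0.000597). That is 1.85-fold, with a 95% interval of 1.47 to 2.34. The log2-fold change was 0.98 (adjusted p = 6.01e-08) when replicate 3 was left out of both groups.

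The other counted copies of A1 rose as well, with larger estimates. Bcl2a1a had 23, 22 and 9 counts in the GSK-J4 libraries and 82, 85 and 58 in the LPS + GSK-J4 libraries, 4.55 ± 1.11 against 29.5 ± 4.78 CPM. Its log2-fold change was 2.64 (SE 0.24, adjusted p = 7.58e-07). Bcl2a1d had 35, 58 and 30 counts against 184, 163 and 128, 10.8 ± 2.39 against 62.3 ± 9.48 CPM, and its log2-fold change was 2.53 (SE 0.20, adjusted p = 1.34e-07). Both passed the larger threshold, and in both all LPS + GSK-J4 libraries were above all GSK-J4 libraries. Bcl2a1c had 0 counts in every GSK-J4 library and 1, 2 and 0 in the LPS + GSK-J4 libraries, under the lower limit, and was not tested. When the counts of Bcl2a1a, Bcl2a1b and Bcl2a1d were summed into 1 row before the fit, the log2-fold change was 1.29 (SE 0.15, adjusted p = 9.12e-06), or 2.44-fold.

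The share of each copy in the A1 counts was then taken within each library. Counts were not corrected for the larger number of windows that only Bcl2a1b holds. The shares thus compare the groups and do not give the level of each copy. Bcl2a1b held 88.3, 84.1 and 85.0% of the summed counts in the GSK-J4 libraries and 65.6, 66.9 and 62.9% in the LPS + GSK-J4 libraries. The log2 ratio of Bcl2a1b to the sum of Bcl2a1a and Bcl2a1d was 2.61 ± 0.27 with GSK-J4 and 0.90 ± 0.13 with LPS + GSK-J4. All libraries of one group were on the same side of all libraries of the other (exact permutation p = 0.1, two-sided, the smallest that 3 against 3 can give). Part of the Bcl2a1b exons, 401 bases, is also annotated on the same strand to Gm29094, a gene not listed in the count tables.

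**Figure D3:**
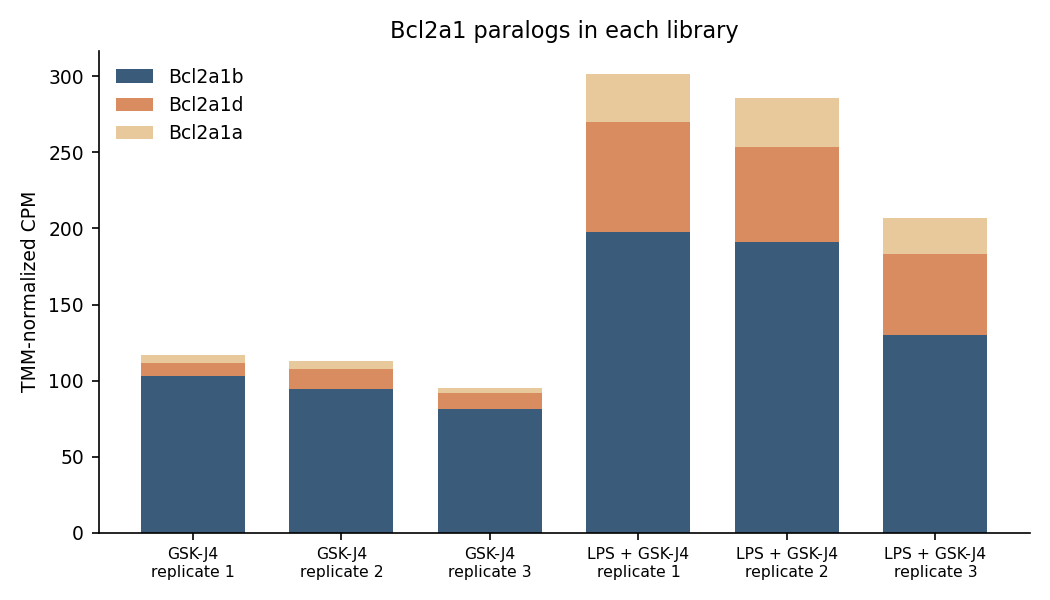
Level of Bcl2a1b, Bcl2a1d and Bcl2a1a (TMM-normalized CPM, stacked, axis from 0) in each of the 6 libraries. Bcl2a1b makes up most of each GSK-J4 bar (84.1 to 88.3% of the summed counts) and 62.9 to 66.9% of each LPS + GSK-J4 bar. Counts are not corrected for stretches shared between the copies.

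Mcl1, which codes for a labile survival protein that immune cells rely on, was the member with the most counts. It lies at chr3:95658788-95663176 (+ strand). Its levels were 398, 407 and 379 CPM in the GSK-J4 libraries and 439, 424 and 374 CPM in the LPS + GSK-J4 libraries, and the groups overlapped. The means of 395 ± 13.8 and 412 ± 34.4 CPM differed by 0.06 on the log2 scale (SE 0.11; adjusted p = 0.729). The 95% interval ran from −0.17 to 0.29. Relative to Mcl1, the summed A1 copies were higher with LPS: the log2 ratio was −1.87 ± 0.12 with GSK-J4 and −0.65 ± 0.17 with LPS + GSK-J4, with no overlap of the groups (exact permutation p = 0.1, the smallest possible).

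Bcl2l1 codes for BCL-XL, a long-lived survival protein of many tissues, and lies at chr2:152780668-152831728 (− strand). Its levels were 16.5, 16.2 and 15.4 CPM with GSK-J4 and 10.1, 11.8 and 11.1 CPM with LPS + GSK-J4. Every LPS + GSK-J4 library was below every GSK-J4 library. The means were 16.0 ± 0.570 and 11.0 ± 0.846 CPM, and the log2-fold change of −0.54 (SE 0.21; 95% interval −0.99 to −0.09) did not pass, with an adjusted p of 0.0784 and an unadjusted p of 0.0218. The values rest on 26 to 72 counts per library.

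Bcl2 itself, the founding survival gene of the family, was the lowest of the 10 per length. It lies at chr1:106538178-106714274 (− strand) and had 10.1, 11.2 and 15.03 CPM with GSK-J4 and 11.3, 15.6 and 14.0 CPM with LPS + GSK-J4, and the groups overlapped. The means of 12.1 ± 2.57 and 13.7 ± 2.19 CPM differed by 0.20 on the log2 scale (SE 0.24; 95% interval −0.31 to 0.71; adjusted p = 0.605).

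Among the BH3-only genes, Bcl2l11, which codes for BIM, a potent activator that binds all survival proteins of the family, showed the largest log2-fold change of the 10. The gene lies at chr2:128126038-128162547 (+ strand). The 250 bases before its first RefSeq start site (chr2:128125788-128126037, + strand, GRCm38.p6) are shown because the gene was called and its window holds a forkhead motif. Capitals mark matches on either strand to the motifs searched, and adjacent or overlapping matches run together.
Bcl2l11: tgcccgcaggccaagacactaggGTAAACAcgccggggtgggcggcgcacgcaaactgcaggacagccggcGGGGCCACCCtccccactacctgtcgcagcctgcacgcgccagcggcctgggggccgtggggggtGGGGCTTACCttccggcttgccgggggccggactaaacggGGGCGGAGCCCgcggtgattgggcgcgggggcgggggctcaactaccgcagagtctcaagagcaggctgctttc

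The forkhead motif GTAAACA begins at base −227 from the start site, and such a match is held by 3.65% of the 32851 promoters of the table. The other capitals are κB matches (GGGNNNNNCC, beginning at bases −179, −114, −74 and −73), a pattern found in 50.8% of all promoters. The interferon-stimulated pattern GAAANNGAAA (3.44% of promoters) and the ATF4 and CHOP pattern TGATGNAAT (0.965%) were not matched in any of the windows searched. Of the other members searched, only Bbc3 held a forkhead match, at base −167 from its second start site. Pmaip1 was not searched. The 300-base window of Bcl2a1b held κB matches at bases 1 and 2 after its start site, while those of Bcl2a1a and Bcl2a1d, which end earlier relative to the shared stretch, held none. These matches are descriptions of letters, and no binding was measured here.

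Bcl2l11 had 63.9, 59.3 and 68.9 CPM in GSK-J4 replicates 1, 2 and 3, and 133, 143 and 128 CPM in LPS + GSK-J4 replicates 1, 2 and 3. The lowest library with LPS was far above the highest without it. Replicate 3 was the highest of the GSK-J4 libraries and the lowest of the LPS + GSK-J4 libraries. The means were 64.0 ± 4.84 and 135 ± 7.47 CPM, a log2-fold change of 1.08 (SE 0.13; 95% interval 0.81 to 1.34; adjusted p = 1.16e-05). That is 2.11-fold, with a 95% interval of 1.75 to 2.54. Without replicate 3 of both groups the log2-fold change was 1.17 (adjusted p = 1.42e-08).

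The rise of Bcl2l11 was set against those of the survival genes within each library. The log2 ratio of Bcl2l11 to Mcl1 was −2.63 ± 0.16 with GSK-J4 and −1.61 ± 0.10 with LPS + GSK-J4, and the groups did not overlap (exact permutation p = 0.1, the smallest possible). The log2 ratio of Bcl2l11 to Bcl2a1b was −0.53 ± 0.26 with GSK-J4 and −0.34 ± 0.28 with LPS + GSK-J4, and the groups overlapped (exact permutation p = 0.5). These are ratios of counts, not of proteins.

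Pmaip1 codes for NOXA, a BH3-only protein that binds MCL1 and A1. Its levels were 13.7, 14.1 and 9.90 CPM with GSK-J4 and 17.6, 23.7 and 16.9 CPM with LPS + GSK-J4, so that each LPS + GSK-J4 library was above each GSK-J4 library. The means were 12.6 ± 2.33 and 19.4 ± 3.72 CPM. The log2-fold change of 0.60 (SE 0.22; 95% interval 0.13 to 1.07) had an unadjusted p of 0.0158 and an adjusted p of 0.0619 and did not pass.

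Bbc3 codes for PUMA, a BH3-only protein best known as a target of DNA damage signals, and lies at chr7:16308393-16318205 (+ strand). It had the fewest counts of the 10 genes, 23, 27 and 22 with GSK-J4 and 22, 15 and 32 with LPS + GSK-J4. In CPM these were 5.43, 6.06 and 8.07 against 8.59, 5.72 and 13.2, and the groups overlapped. The log2-fold change was 0.51 (SE 0.32; 95% interval −0.18 to 1.20; adjusted p = 0.288), an interval that covers both no change and a doubling. Counts on the opposite strand were up to 16.7% of the total over Bbc3 in a library, the highest share among the 10 genes.

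Bid, whose protein links death receptors to mitochondria once caspase-8 has cleaved it, lies at chr6:120891930-120916853 (− strand). It had 12.3, 12.8 and 11.4 CPM with GSK-J4 and 8.59, 10.7 and 17.3 CPM with LPS + GSK-J4. The GSK-J4 libraries lay within the spread of the LPS + GSK-J4 libraries, of which replicate 3 was the highest. The means were 12.1 ± 0.722 and 12.2 ± 4.57 CPM and the log2-fold change was −0.01 (SE 0.26; 95% interval −0.56 to 0.55; adjusted p = 0.989). It was −0.34 (adjusted p = 0.392) without LPS + GSK-J4 replicate 3 and 0.19 (adjusted p = 0.678) without LPS + GSK-J4 replicate 1. Over 628 exonic bases Bid overlaps Bcl2l13 on the opposite strand.

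The pore formers Bax and Bak1 can stand in for each other in most cells, and their estimates had opposite signs. Bax lies at chr7:45461697-45466898 (− strand). It had 85.2, 85.7 and 94.6 CPM with GSK-J4 and 58.2, 63.7 and 80.9 CPM with LPS + GSK-J4, so that every LPS + GSK-J4 library was below every GSK-J4 library. The means were 88.5 ± 5.28 and 67.6 ± 11.9 CPM, a log2-fold change of −0.39 (SE 0.14; 95% interval −0.69 to −0.08). With an adjusted p of 0.0635 (unadjusted p 0.0164) it was not called. It was called lower without LPS + GSK-J4 replicate 3 (log2-fold change −0.53, adjusted p = 0.00424) and without replicate 3 of both groups (−0.48, adjusted p = 0.00329). A quasi-likelihood fit with the replicate number as a block also called Bax lower (−0.40, adjusted p = 0.00470). Over 192 exonic bases Bax shares its strand with Gm45808, which is not listed in the count tables.

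Bak1 lies at chr17:27019810-27029009 (− strand) and overlaps Ggnbp1 on the opposite strand over 614 exonic bases. It had 40.8, 43.3 and 44.7 CPM with GSK-J4 and 47.6, 45.0 and 59.1 CPM with LPS + GSK-J4. The groups did not overlap, but the gap between them was small and LPS + GSK-J4 replicate 3 was the highest. The means of 43.0 ± 1.98 and 50.6 ± 7.46 CPM gave a log2-fold change of 0.24 (SE 0.15; 95% interval −0.09 to 0.56; adjusted p = 0.298). The log2 ratio of Bax to Bak1 was 1.04 ± 0.05 with GSK-J4 and 0.41 ± 0.11 with LPS + GSK-J4, with no overlap between the groups (exact permutation p = 0.1, the smallest possible).

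The ratios between genes given above are of CPM without a correction for length. They compare the 2 groups and do not rank the genes. Within a group, levels of different genes were compared per length, as CPM per kilobase of exon. With GSK-J4 alone, 3 genes stood well above the rest. These were Mcl1 at 115 ± 4.04, Bcl2a1b at 114 ± 13.8 and Bax at 102 ± 6.09 CPM per kilobase, and neighbours among them did not differ beyond their spread. Bak1 followed at 18.0 ± 0.831 and Bcl2l11 at 9.29 ± 0.701. Bcl2l1 (5.94 ± 0.211) and Bid (5.55, with libraries from 5.19 to 5.84) overlapped, as did Pmaip1 (4.61 ± 0.854) and Bbc3 (3.59 ± 0.760), and Bcl2 was the lowest at 1.33 ± 0.280 CPM per kilobase.

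With LPS + GSK-J4, Bcl2a1b stood alone at the top, and Bcl2l11 stood beside Bak1. Bcl2a1b was highest at 212 ± 45.7 CPM per kilobase, above Mcl1 at 121 ± 10.1 and Bax at 78.0 ± 13.7, with no overlap between these neighbours. Bcl2l11 reached 19.5 ± 1.08, a level that overlapped that of Bak1 at 21.2 ± 3.13. Pmaip1 (7.11 ± 1.36), Bid (5.58 ± 2.09), Bbc3 (5.06 ± 2.08) and Bcl2l1 (4.09 ± 0.314) each overlapped the next, and Bcl2 was again the lowest at 1.49 ± 0.239 CPM per kilobase. The level of Bcl2a1b leaves out fragments shared with the other copies in both groups.

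**Figure D4:**
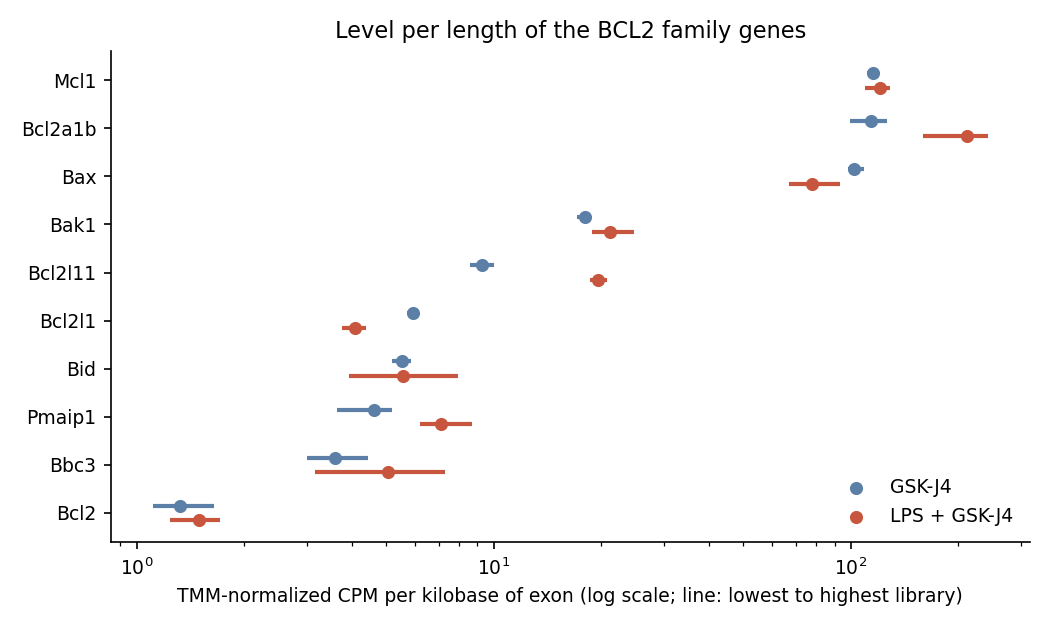
Level per length of the 10 genes (TMM-normalized CPM per kilobase of exon, log axis) with GSK-J4 (blue) and LPS + GSK-J4 (red); points are means of 3 libraries and lines run from the lowest to the highest library. Bcl2a1b goes from 114 to 212 CPM per kilobase and Bcl2l11 from 9.29 to 19.5, while Mcl1 is at 115 and 121.

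The other genes of the pathway were read from 6 lists with 53 genes, of which 44 passed the filter on low counts. Of these 44, 5 were called higher, 6 were called lower and 33 were not called, and 3 passed the larger threshold, beside 8.42%, 5.46% and 3.76% of all genes tested that were called higher, called lower and past the larger threshold. Their median log2-fold change was −0.07. In the list of other BCL2 family genes 8 of 14 were tested and only the A1 copies Bcl2a1a and Bcl2a1d were called. The 6 that were not tested there were Bcl2a1c, Bcl2l10, Bcl2l14, Bcl2l15, Bik and Hrk, with at most 9 counts in any library. The BH3-only gene Bmf had 10.8 ± 2.57 CPM with GSK-J4 and 6.55 ± 0.963 CPM with LPS + GSK-J4 and was not called (log2-fold change −0.74, SE 0.28, adjusted p = 0.0712); it was named after its values were seen.

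Among inhibitors of caspases, which act beside and below the BCL2 family, 5 of 6 genes were tested and 2 rose. Cflar codes for c-FLIP, which keeps caspase-8 inactive at death receptors, and it had 111, 99.7 and 84.0 CPM with GSK-J4 and 375, 363 and 308 CPM with LPS + GSK-J4. Its log2-fold change was 1.82 (SE 0.13, adjusted p = 4.59e-08), past the larger threshold and the largest of the 44 after the A1 copies. Birc3, which codes for the ubiquitin ligase cIAP2, went from 36.5 ± 9.25 to 61.8 ± 9.14 CPM (log2-fold change 0.74, SE 0.18, adjusted p = 0.00756). Its call was lost without GSK-J4 replicate 2 or 3 and without LPS + GSK-J4 replicate 1 or 2 (adjusted p between 0.0219 and 0.0360), and with the DESeq2 Wald test (adjusted p = 0.0127).

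Of the mitochondrial death effectors, most of them genes that act once the pore has opened, all 13 were tested, 1 rose and 1 fell. Cycs, which codes for cytochrome c, had 14.3 ± 1.29 CPM with GSK-J4 and 27.8 ± 4.05 CPM with LPS + GSK-J4 (log2-fold change 0.94, SE 0.19, adjusted p = 0.00194). Casp9, the caspase that cytochrome c activates through Apaf1, fell from 31.4 ± 3.27 to 17.4 ± 0.196 CPM (log2-fold change −0.85, SE 0.18, adjusted p = 0.00264). The call of Cycs was lost without LPS + GSK-J4 replicate 2 (adjusted p = 0.0130), and that of Casp9 without GSK-J4 replicate 3 (0.0111) or LPS + GSK-J4 replicate 2 (0.0160).

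In the list of death receptor and necroptosis genes 7 of 9 were tested and 1 was called. Ripk1, a kinase below the TNF receptor, went from 64.7 ± 6.48 to 43.9 ± 2.63 CPM (log2-fold change −0.56, SE 0.14, adjusted p = 0.00920), a call that each of the 6 fits without a single library lost (adjusted p between 0.0102 and 0.0663). Fas, the death receptor itself, had 1, 5 and 1 counts with GSK-J4 and 11, 7 and 9 with LPS + GSK-J4 and was too low to be tested; it too was named after its values were seen.

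The list of genes that control the stability of the MCL1 protein held 5 genes, all tested, and Fbxw7 fell. It codes for a ubiquitin ligase subunit that marks MCL1 for degradation and had 31.4, 25.8 and 32.3 CPM with GSK-J4 and 16.4, 16.8 and 10.3 CPM with LPS + GSK-J4 (log2-fold change −1.03, SE 0.21, adjusted p = 0.00209). Its call was lost by a small margin without GSK-J4 replicate 1 (adjusted p = 0.0104). The ligase gene Huwe1 and the deubiquitinase gene Usp9x had log2-fold changes of 0.14 and −0.01 and were not called.

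In the list of stress regulators of BH3-only genes, which also holds the stress target Chac1, all 6 genes were tested and 3 fell. Atf4, the main transcription factor of the integrated stress response, had 1360, 1454 and 1371 CPM with GSK-J4 and 498, 508 and 474 CPM with LPS + GSK-J4. It fell to 0.354-fold (95% interval 0.305 to 0.410; adjusted p = 1.99e-08), just short of the larger threshold, which it passed with the DESeq2 Wald test. Trib3 fell from 79.0 ± 3.73 to 44.1 ± 6.996 CPM (log2-fold change −0.84, SE 0.15, adjusted p = 0.000544). Ddit3, which codes for CHOP, a factor known to raise the transcription of Bcl2l11 and Bbc3 under endoplasmic reticulum stress, went from 72.7 ± 9.53 to 43.5 ± 8.79 CPM (log2-fold change −0.74, SE 0.17, adjusted p = 0.00381). That call was lost without GSK-J4 replicate 1 or 3 and without LPS + GSK-J4 replicate 1 or 2 (adjusted p between 0.0119 and 0.0307). The forkhead genes Foxo1 and Foxo3, whose proteins are known activators of Bcl2l11, had log2-fold changes of 0.06 (adjusted p = 0.874) and 0.03 (adjusted p = 0.953). Chac1, a target of ATF4 and CHOP, had a log2-fold change of −0.14 (adjusted p = 0.650), and its groups overlapped.

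**Figure D5:**
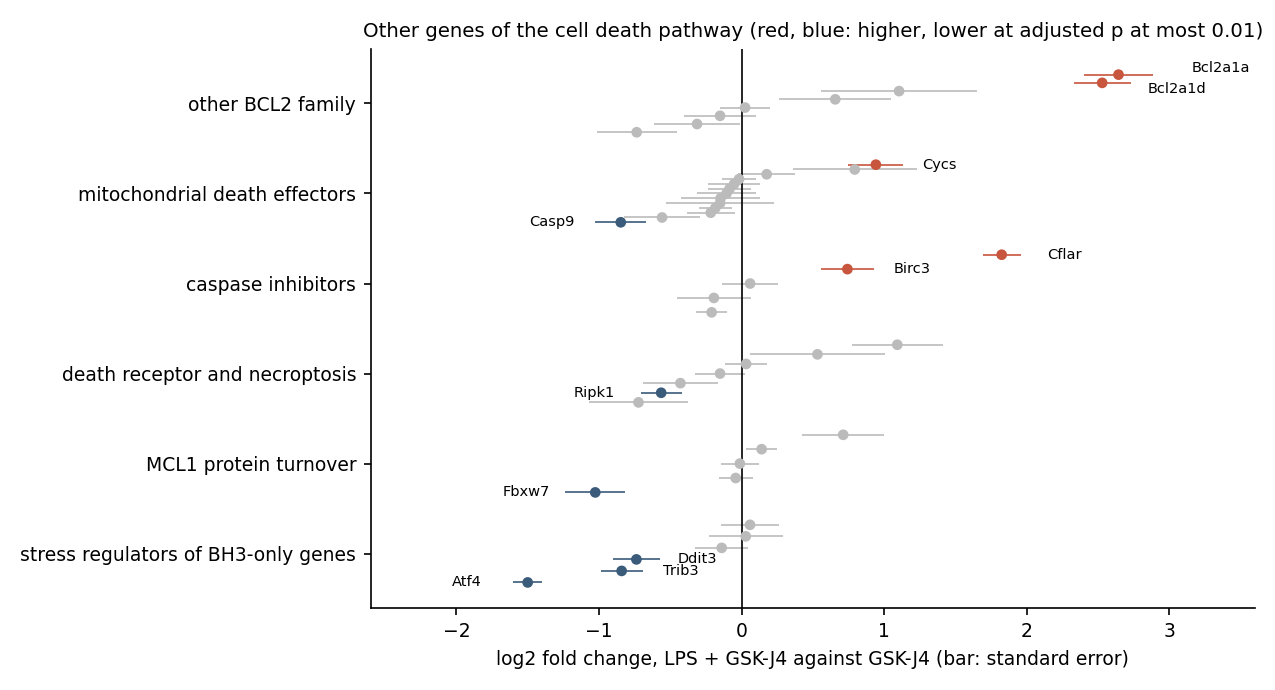
Log2-fold change with LPS + GSK-J4 relative to GSK-J4 for the 44 tested genes in 6 lists of the cell death pathway; points are estimates, bars are standard errors, and genes past an adjusted p of 0.01 are named and coloured (red higher, blue lower). The A1 copies (2.64 and 2.53) and Cflar (1.82) lie farthest to the right and Atf4 (0.354-fold) farthest to the left.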

How the data were processed

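RNA-seq libraries of PM (3 with GSK-J4, 3 with LPS + GSK-J4) were analysed, grouped by the titles in the labels. RNA was depleted of rRNA and made into libraries with a directional kit. The authors trimmed 101-base paired reads (Trimmomatic 0.33), aligned them to mm10 (STAR 2.5.1) and deposited raw counts of fragments per gene, without normalization. Base calls were made with CASAVA 1.8.2, per the labels. The annotation used for counting is not given in the sources used here.

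The reverse-strand column was used, since the other strand held 0.966 to 1.38% of assigned fragments. Fragments that STAR left unassigned (74.0 to 78.0%) were left out. Counts were scaled by TMM, filtered with filterByExpr (minimum count 10, minimum total 15) and tested with edgeR 4.0.16 (limma 3.58.1, R 4.3.3), by the robust quasi-likelihood test without covariates, with Benjamini-Hochberg adjustment over the 10133 genes tested. The study used DESeq2, here an alternative (1.42.0). The test was first run on simulated counts with known changes. There it called 53 of 100 genes with an absolute log2-fold change of 1 and 96 of 100 with 2. Of 9933 unchanged genes it called 3. The common biological coefficient of variation was 0.133. SE is the log2-fold change divided by the root of F. Lengths are unions of exons of RefSeq-matched GENCODE transcripts. Promoters are from RefSeq (GRCm38.p6). Of the 10 genes, 9 were searched there, and Pmaip1 was left out of the search. Figures were drawn with matplotlib 3.10.9, and promoters were aligned with Biopython 1.88 (Python 3.11.15).

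The 10 genes and all lists were chosen with earlier results of these data known. The genes named are the 10, the A1 copies and the list genes called. Bmf, Fas, Huwe1, Usp9x, Foxo1, Foxo3 and Chac1 were named after their values were seen. Alternatives were unstranded counts, DESeq2 size factors, the DESeq2 Wald test, removal of Rn45s, Mir6236 and Lars2, no filter, at least 10 counts in every sample, the replicate number as a block, an adjusted p of 0.05 and leaving out each library. Leaving out replicate 3 of both groups and summing the A1 copies were chosen after the data were seen. The 95% intervals come from the quasi-likelihood fit and take in the spread between libraries.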

Additional observations from a re-analysis of the deposited data

Results flagged for a closer look

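Fragments on the strand opposite to a gene entered only the alternative with unstranded counts. For 3 genes, their level in each LPS + GSK-J4 library was above that in each GSK-J4 library. Opposite-strand fragments of Cflar numbered 4, 9 and 0 with GSK-J4 and 11, 13 and 14 with LPS + GSK-J4 (0.988 and 5.01 CPM). Those of Bcl2a1b numbered 8, 10 and 4 with GSK-J4 and 12, 8 and 10 with LPS + GSK-J4 (1.87 and 3.96 CPM). Those of Mcl1 numbered 13, 17 and 7 with GSK-J4 and 11, 11 and 12 with LPS + GSK-J4 (3.15 and 4.48 CPM). In any library, such fragments were at most 1.99% of all fragments over Cflar, 3.08% over Bcl2a1b and 1.31% over Mcl1. Sense counts of Cflar and Bcl2a1b were higher with LPS + GSK-J4 as well. The differences on the opposite strand were not tested.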

How the results depend on the processing

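For the 10 genes and the 11 pathway genes called, 269 of 294 fold changes recomputed under an alternative kept their direction and their side of the threshold. The sum of the A1 copies, a different quantity, was counted among these as an alternative for Bcl2a1b. Bcl2a1b and Bcl2l11 were called higher under every alternative, with log2-fold changes of 0.78 to 1.06 and 1.02 to 1.13 when 1 library was left out (highest adjusted p 0.00860 and 0.000388). The number of the 10 genes called lower was 0 and became 1 (Bax, log2-fold change −0.48) without replicate 3 of both groups, and ranged from 0 to 1 (Bax, −0.53, without LPS + GSK-J4 replicate 3) when 1 library was left out. The sign of Bid reversed, with log2-fold changes from −0.34 to 0.19 when 1 library was left out. Calls among the pathway genes ranged from 3 to 6 higher, 3 to 5 lower (6 with all libraries) and 3 to 5 past the larger threshold when 1 library was left out, and 5 passed the larger threshold without the filter. Over all genes, an adjusted p of 0.05 gave 1386 higher and 1004 lower, no filter gave 858 lower, leaving out 1 library gave 312 to 679 lower, and at least 10 counts in every sample left 232 past the larger threshold. The labels do not say whether replicate numbers pair the libraries. Deviations of same-numbered libraries correlated across genes at −0.00872, 0.124 and 0.305 for replicates 1, 2 and 3. Whether the numbers mark a shared culture or day was not tested. With the replicate block, 1 of the 10 genes (Bax, log2-fold change −0.40, adjusted p = 0.00470) and 1016 of all genes were called lower, and 1259 of all genes were called higher. The median log2-fold change of all genes was 0.12 without the filter and −0.00963 to 0.0144 otherwise. The cause of these changes was not tested. Bbc3, with 15 to 32 counts per library, had the widest interval of the 10 genes.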
